A study of Mus musculus with 18 samples.

Results

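The genes described here are 10 regulators and outputs of the CHOP and ATF4 stress response: *Ddit3*, *Chac1*, *Trib3*, *Atf4*, *Atf5*, *Cebpb*, *Ppp1r15a*, *Ddit4*, *Nupr1* and *Vldlr*. They were picked by symbol, and all 10 were found among the 40800 genes of the deposited count table. They were selected on their levels in homozygous *Cryaa*-R49C lenses, so the comparison of those lenses with WT is described for them and is not tested. RNA came from whole mouse lenses of the C57BL/6J strain in 18 libraries, 3 in each of 6 groups, and each library held lenses pooled from several animals. The *Cryaa* line was sampled at 2 days of age and the *Cryab* line at 14 days of age, each as WT, as heterozygotes (*Cryaa*-R49C-het, *Cryab*-R120G-het) and as homozygotes (*Cryaa*-R49C-homo, *Cryab*-R120G-homo). R49C and R120G are single amino acid changes in αA-crystallin and αB-crystallin, small heat shock proteins of the lens, and both were knocked into the mouse's own gene, so all cells that use the gene carry the change. The WT lenses came from age-matched C57BL/6J mice. Line and age cannot be told apart, because each line was sampled at 1 age.

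The integrated stress response begins when 1 of several kinases phosphorylates the translation initiation factor eIF2. Most protein synthesis then slows, while the mRNA of *Atf4*, a basic leucine zipper (bZIP) transcription factor, is translated better. ATF4 and its target CHOP, the protein made from *Ddit3*, turn on genes for amino acid supply, for glutathione breakdown, for restoring translation and, when stress lasts, for cell death. In the lens the pathway is known from models in which mutant crystallins or connexins misfold.

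Library totals lay between 14272174 and 29639719 counts. The scaling factors (TMM, trimmed mean of M values) lay between 1.20 and 2.27 in the *Cryaa* line and between 0.488 and 0.774 in the *Cryab* line, so levels are compared across the lines only with other scalings beside them. Crystallin genes took between 23.8% and 76.1% of the counts, and the single gene Gm42418 between 2.53% and 42.6%. *Cryaa*-R49C-homo replicate 1 had the lowest Gm42418 share, 2.53%, against 24.5% and 42.6% in the other two libraries of that group. *Cryab*-WT replicate 1 stood apart in a second way: its 16 immediate-early genes summed to 2222 CPM (counts per 1000000 counts, after TMM scaling), while no other library exceeded 110 CPM. The lens fibre markers *Bfsp1*, *Bfsp2*, *Mip* and *Crygs* were present in every group, and *Lim2* was listed at 0 in all 18 libraries. The mutant *Cryaa* allele still makes a countable transcript (*Cryaa* had 31365 to 92896 CPM in *Cryaa*-R49C-homo and 69925 to 103226 CPM in the WT libraries), and so does that of *Cryab*, so the level of these genes does not check the genotype labels.

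In homozygous *Cryaa*-R49C lenses, 9 of the 10 genes were higher in each of the 3 libraries than in any of the 3 WT libraries, and *Ppp1r15a* overlapped WT. Among all 13938 genes that passed the filter on low counts, 11.9% had all homo libraries above all WT libraries, and 9.79% passed an adjusted p of 0.05 in this comparison. Since these very values chose the genes, nothing is read from the count of 9. The median log2 fold change was 2.96 over the 10 genes and 0.00 over all genes. Scaling by library size without TMM moved the median of all genes to 0.41, and *Ppp1r15a* with it to 0.42, while the same 9 genes stayed above WT in each library, as 20.5% of all genes then did. All 10 genes passed the filter, but *Trib3* and *Cebpb* did so through the homo libraries, with 0 and 1 libraries outside that group over the filter's minimum, which is 0.494 counts per 1000000 of the library total before TMM scaling. Just inside the line stood *Vldlr*, whose lowest homo library (30.1 CPM) was above its highest WT library (24.8 CPM), and just outside stood *Ppp1r15a*, whose lowest homo library (6.31 CPM) was below all WT libraries. In whole lenses a change in the share of a cell type and a change in RNA per cell cannot be told apart.

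**Figure D1:**
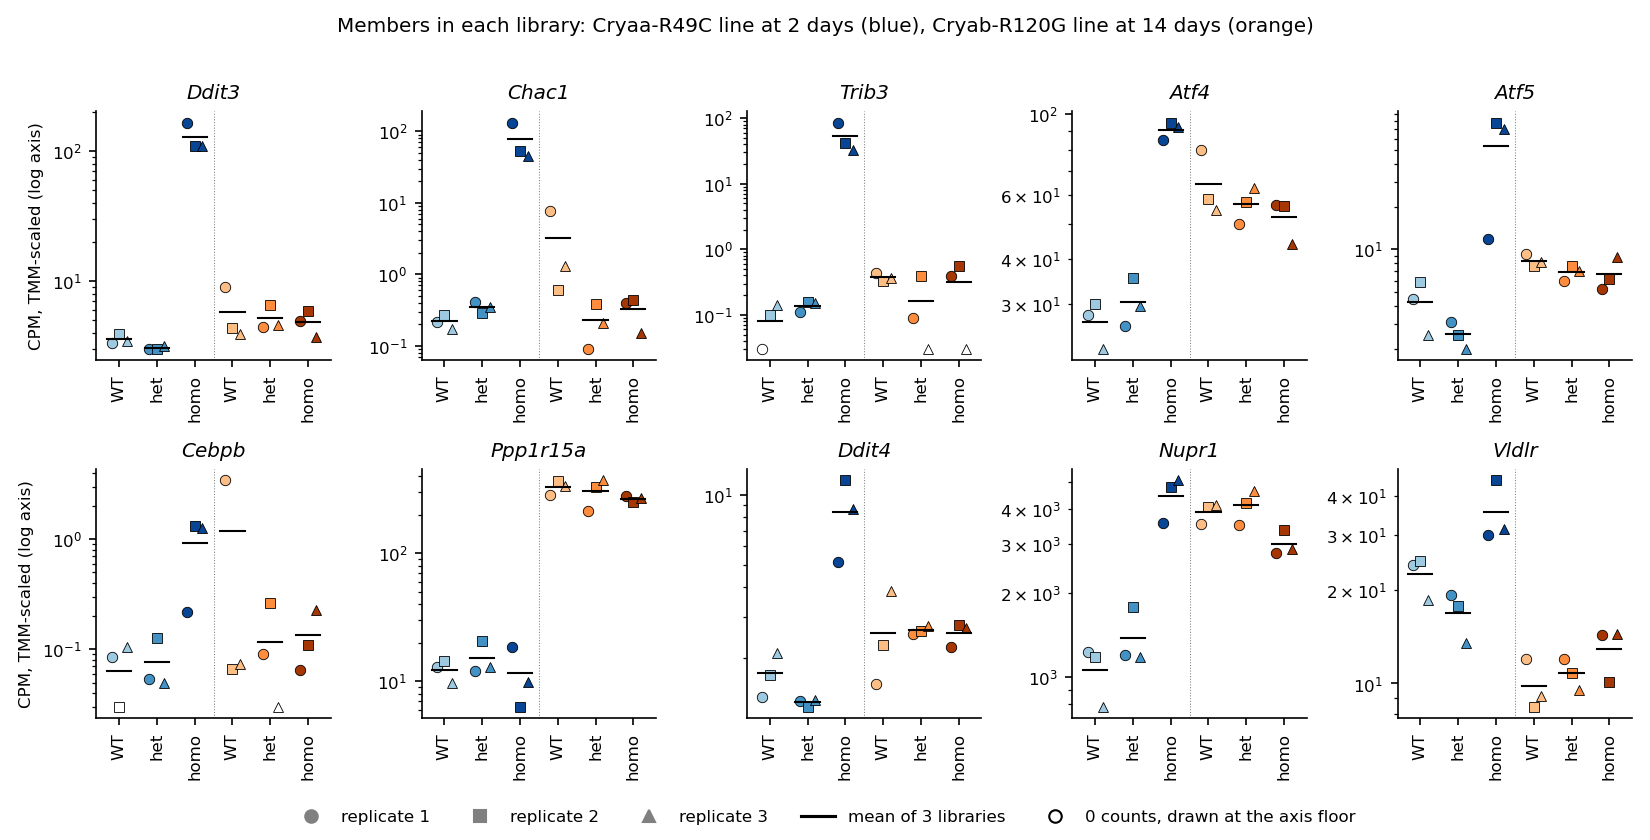
Level of each gene in every library, in TMM-scaled CPM on a log axis that differs between panels. Points are libraries, black lines are means of 3 libraries, and open points are libraries with 0 counts. The *Cryaa*-R49C-homo libraries sit above both other groups of their line for 9 genes and overlap them for *Ppp1r15a*, and *Cryab*-WT replicate 1 sits far above the other *Cryab* libraries for *Chac1* and *Cebpb*.

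*Atf4* (GRCm38 chr15:80255184-80257541, + strand), the factor at the head of the response, had 28.1, 30.0 and 22.6 CPM in the WT libraries and 84.9, 95 and 92.6 CPM in the homo libraries. The groups were far apart and the homo libraries close together, with a log2 fold change of 1.75 (95% interval 1.32 to 2.19). *Ddit3* (chr10:127290774-127296288, + strand), which encodes CHOP, a bZIP factor linked to cell death under lasting stress, had 3.32, 3.91 and 3.47 CPM in WT lenses. In homo lenses it had 166, 109 and 110 CPM, and its log2 fold change was 5.17 (4.53 to 5.80). *Atf5* (chr7:44812256-44816658, − strand), a bZIP factor tied to the mitochondrial stress response, had 4.51, 5.87 and 2.52 CPM in WT lenses and 11.8, 78.1 and 70.8 CPM in homo lenses. Homo replicate 1 was therefore about 6.65-fold below the highest homo library but still above every WT library. *Cebpb* (chr2:167688915-167690418, + strand), a bZIP factor that pairs with CHOP and ATF4, was close to the floor in WT lenses, with 5 counts over the 3 libraries. It had 0.22, 1.32 and 1.25 CPM in homo lenses, a ratio of summed counts of 13.4 (exact counting interval 5.52 to 42.3, which covers counting error only).

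*Chac1* (chr2:119351229-119354381, + strand), which encodes an enzyme that breaks down glutathione, had 5, 8 and 5 counts in the WT libraries, which is 0.213, 0.27 and 0.175 CPM. In homo lenses it had 133, 54.0 and 45.4 CPM, all far above WT, and the ratio of summed counts was 392 (248 to 663). *Trib3* (chr2:152337422-152344032, − strand), a pseudokinase that binds ATF4 and CHOP and restrains them, had 0, 3 and 4 counts in WT lenses. It had 85.9, 42.4 and 32.3 CPM in homo lenses, and the ratio of summed counts was 688 (334 to 1711). These 2 genes had the largest differences of the 10, from WT levels near the floor.

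*Ddit4* (chr10:59949669-59951834, − strand), an inhibitor of the growth kinase mTORC1, had 1.36, 1.69 and 2.10 CPM in WT lenses and 5.15, 11.5 and 8.70 CPM in homo lenses, a log2 fold change of 2.29 (1.65 to 2.93). *Nupr1* (chr7:126623249-126630861, − strand), a small nuclear protein induced by many stresses, was abundant from the start, with 1230, 1174 and 779 CPM in WT lenses. It had 3566, 4780 and 5066 CPM in homo lenses, a log2 fold change of 2.08 (1.56 to 2.59). *Vldlr* (chr19:27216484-27254231, + strand), a lipoprotein receptor that also binds reelin, had 24.0, 24.8 and 18.6 CPM in WT lenses and 30.1, 45 and 31.5 CPM in homo lenses, the smallest of the 9 higher levels, with a log2 fold change of 0.66 (0.20 to 1.12). *Ppp1r15a* (chr7:45522916-45526268, − strand), which encodes GADD34, the subunit that directs a phosphatase to eIF2, had 13.0, 14.4 and 9.70 CPM in WT lenses and 18.6, 6.31 and 9.88 CPM in homo lenses. Its homo libraries lay on both sides of WT, and its log2 fold change was −0.09 (−0.72 to 0.55).

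The comparison with *Cryaa*-R49C-het uses the same homo libraries as the choice of the genes and is likewise only described. All homo libraries were above all het libraries for 9 of the 10 genes, as for 11.6% of all genes, and by library totals the same 9 genes against 19.2%, and 8.32% of all genes passed the threshold. *Ddit3* had 3.02, 3.00 and 3.19 CPM in het lenses, which put the log2 difference between homo and het at 5.38 (4.74 to 6.03). *Trib3* had 0.109, 0.158 and 0.149 CPM in het lenses, a log2 difference of 8.54 (7.26 to 9.82). *Ppp1r15a* again overlapped, with a log2 difference of −0.38 (−1.01 to 0.25). Without homo replicate 1 these log2 differences were 5.15 for *Ddit3*, 8.02 for *Trib3* and −0.91 for *Ppp1r15a*.

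The 3 homo libraries did not rank the 10 genes alike. Replicate 1 had the highest level of 4 genes (*Ddit3*, *Chac1*, *Trib3*, *Ppp1r15a*) and the lowest level of the other 6 (*Atf4*, *Atf5*, *Cebpb*, *Ddit4*, *Nupr1*, *Vldlr*). *Chac1* was 2.93-fold and *Trib3* 2.66-fold apart between the highest and the lowest homo library, whereas *Atf4* was only 1.12-fold apart. Without replicate 1 the log2 fold change against WT went from 8.43 to 7.78 for *Chac1*, from 9.21 to 8.68 for *Trib3* and from 5.17 to 4.93 for *Ddit3*. It went the other way for the 6 genes lowest in replicate 1, from 3.63 to 4.11 for *Atf5*, from 3.78 to 4.26 for *Cebpb*, from 2.29 to 2.55 for *Ddit4*, from 2.08 to 2.21 for *Nupr1*, from 0.66 to 0.77 for *Vldlr* and from 1.75 to 1.8 for *Atf4*. *Ppp1r15a* moved from −0.09 to −0.62 without replicate 1 and to 0.21 without replicate 2, so its sign rests on single libraries. Leaving out a WT library instead put *Cebpb* at 3.17 without *Cryaa*-WT replicate 2 and at 4.38 without *Cryaa*-WT replicate 3. Replicate 1 was also the homo library with the lowest Gm42418 share, the highest crystallin share (61.2% against 37.7% and 23.8%), the lowest sum of vessel markers (18.9 against 63.2 and 56.9 CPM) and the lowest sum of macrophage markers (15.5 against 26.4 and 29.8 CPM). The part of these in the values of the 10 genes was not tested.

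**Figure D2:**
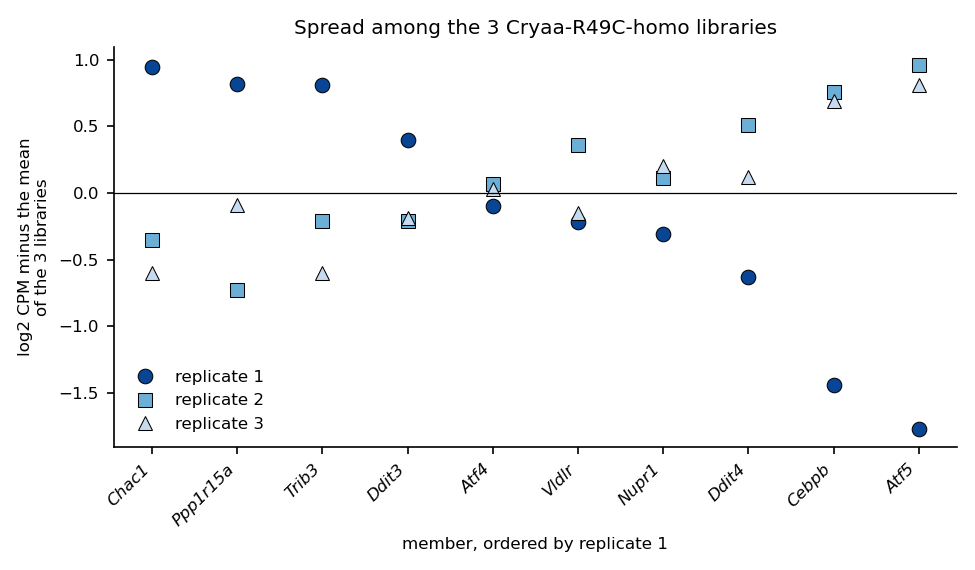
Each gene's log2 CPM in the 3 *Cryaa*-R49C-homo libraries, as the difference from their mean, ordered by replicate 1. Replicate 1 (circles) lies above the other two libraries for *Chac1*, *Ppp1r15a*, *Trib3* and *Ddit3* and below them for the other 6 genes, from −0.10 for *Atf4* to −1.77 for *Atf5*.

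Between genes, levels were compared per length and within a library, with the deposited RPKM (reads per kilobase of gene length, scaled by the library total without TMM). In *Cryaa*-WT lenses *Nupr1* was first with 609 ± 43.3 RPKM (SD, n = 3), followed by *Atf4* with 22.9 ± 2.92 and *Ppp1r15a* with 6.12 ± 0.425 RPKM. *Vldlr*, *Ddit3* and *Atf5*, at 3.26 to 3.02 RPKM, overlapped their neighbours, and *Cebpb* and *Trib3* came last and overlapped each other. In *Cryaa*-R49C-homo lenses *Nupr1* stayed first with 3494 ± 307 RPKM, and *Ddit3* stood at rank 2 with 152 ± 58.9 RPKM, in place of rank 5 in WT. *Ddit3*, *Atf4* (105 ± 11.1 RPKM), *Chac1* (99.2 ± 74.0), *Trib3* (52.6 ± 34.5) and *Atf5* (51.0 ± 33.8) formed a run in which each overlapped the next. The run of overlaps went on through *Ddit4* and *Ppp1r15a* to *Vldlr* at rank 9. In all 3 groups of the *Cryab* line the order began with *Nupr1*, *Ppp1r15a* and *Atf4*, without overlap between them. *Ppp1r15a* had 57.4 ± 9.65 RPKM in *Cryab*-WT lenses, above *Atf4* with 19.0 ± 3.83 RPKM, the reverse of their order in every group of the *Cryaa* line.

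ATF4 acts together with C/EBP factors at a composite site, the C/EBP-ATF response element, and other bZIP factors bind the cyclic AMP response element. Promoter windows of RefSeq (GRCm38.p6), from 250 bases before to 50 bases after each annotated start, were searched on both strands for TTGCATCA and TTTCATCA (the composite site), TGACGTCA (the full cyclic AMP site), TGACGT (its shorter form, which every TGACGTCA contains), TATAAA, and the ER stress element, CCAAT and CCACG with 9 bases between. All 10 genes had a window, 12 windows in all. The matches to the composite site and to the full cyclic AMP site are shown here in gene direction, with the motif in capitals, because they show which of these genes hold a bZIP site next to the start:
*Chac1*, chr2:119351038-119351067, + strand: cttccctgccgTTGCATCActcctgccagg
*Nupr1*, chr7:126625562-126625591, − strand: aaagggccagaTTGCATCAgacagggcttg
*Vldlr*, chr19:27216809-27216838, + strand: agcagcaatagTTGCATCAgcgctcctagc
*Ppp1r15a*, chr7:45526262-45526291, − strand: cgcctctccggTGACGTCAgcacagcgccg

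The *Chac1* site lay outside the annotated gene, with 185 bases between it and the start. The *Nupr1* site lay 102 bases before its start, within an untranslated exon of a longer *Nupr1* transcript in GENCODE vM21, and the *Vldlr* site 192 bases before a second start that lies inside the gene, within an exon. The *Ppp1r15a* site ended 4 bases before its start. TTGCATCA was found in 3 of the 12 windows of these genes and in 0.895% of all 32851 windows, and TGACGTCA in 1 of 12 and in 1.79%. TTTCATCA was in 0 of 12 windows and in 1.02% of all, TGACGT in 1 of 12 (the same *Ppp1r15a* site) and in 7.51%, and the ER stress element in 0 of 12 and in 0.119%. TATAAA was found for *Trib3*, *Cebpb* and *Ppp1r15a*, 3 of 12 windows, against 13.6% of all. A match gives letters only and no binding, and these windows are short.

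Heterozygous *Cryaa*-R49C lenses were tested for the same 10 genes to ask whether a single mutant copy moved them at 2 days. The WT libraries of this test also served in the choice of the genes. None of the 10 passed (0 of 10 by the quasi-likelihood test of edgeR, 0 at an unadjusted p under 0.05, and 0 by DESeq2), and 0.00717% of all genes tested passed. *Trib3* and *Cebpb* were in this test only through the *Cryaa*-R49C-homo libraries. With only the het and WT libraries in the fit, the filter removed both and *Chac1*, and 0 of the other 7 genes passed. *Ddit3* was lower in all 3 het libraries (3.00 to 3.19 CPM) than in all WT libraries (3.32 to 3.91 CPM), with a log2 fold change of −0.22 ± 0.27 (SE) and an adjusted p of 0.87 (edgeR). *Ddit4* was also below WT in all 3 libraries, at −0.42 ± 0.31, and *Chac1* above, with 0.284 to 0.408 against 0.175 to 0.27 CPM (9 to 15 against 5 to 8 counts). These 3 of 10 genes without overlap compare with 21.9% of all genes. *Atf4* had 26.1, 35.5 and 29.7 CPM in het lenses, overlapping WT, and the 95% interval of its log2 fold change ran from −0.25 to 0.60. *Nupr1* had 1195, 1777 and 1178 CPM, also overlapping WT, at 0.38 ± 0.24. Which genes stood apart from WT depended on the scaling. With library totals alone, under which all genes had a median of 0.21 (log2), *Chac1*, *Atf4*, *Ppp1r15a* and *Nupr1* were above WT in all 3 het libraries and *Ddit3* and *Ddit4* overlapped it, 4 of 10 genes against 14.2% of all genes. *Nupr1* was then at 0.63 ± 0.19 with an unadjusted p of 0.00286 (edgeR, adjusted p = 0.852), and again 0 of the 10 genes passed. For *Trib3*, with 15 counts in het and 7 in WT lenses, the ratio of summed counts was 1.61 (0.619 to 4.68), so a difference of that size was not detectable at this depth.

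**Figure D3:**
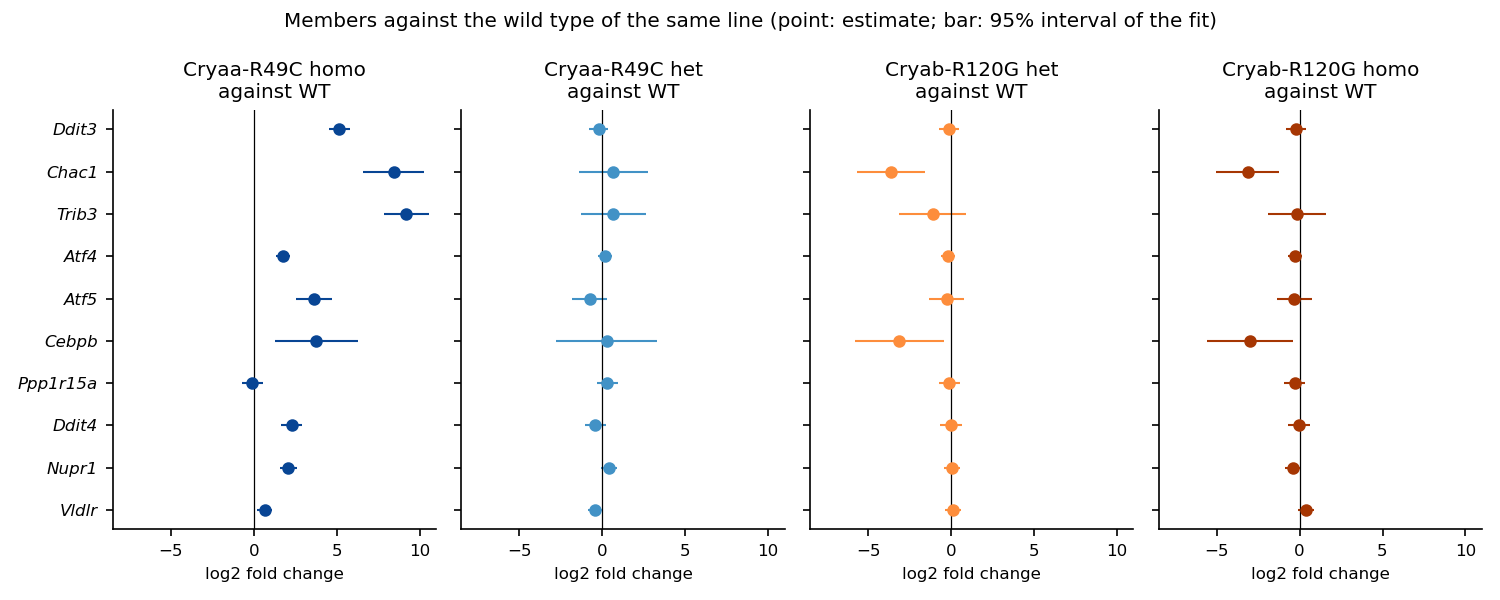
Log2 fold change of each gene against the WT lenses of its own line, with the 95% interval of the fit. Only the first panel, which chose the genes, has estimates above 1 (8 of 10). In the *Cryab* panels the estimates of *Chac1* and *Cebpb* lie below −3, and both moved towards or past 0 without *Cryab*-WT replicate 1.

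In the *Cryab* line at 14 days, none of the 10 genes passed in het or in homo lenses against WT (edgeR, 0 of 10 in each, with 2 at an unadjusted p under 0.05 in each). Over all genes 0.00717% passed in het and 0.0502% in homo lenses. Here too *Trib3*, *Cebpb* and *Chac1* could not be tested with only the groups compared in the fit, and 0 of the other 7 genes passed in either comparison. *Ddit3* had 9.03, 4.40 and 3.93 CPM in WT lenses, 4.41, 6.59 and 4.62 CPM in het lenses and 4.98, 5.88 and 3.75 CPM in homo lenses. The 3 groups overlapped, and the 95% interval of the log2 fold change in homo lenses was −0.81 to 0.37. *Trib3* stayed near the floor in all 3 groups, with at most 0.55 CPM, and *Atf4* had 54.7 to 79.9 CPM in the WT libraries and 44.1 to 56.5 CPM in the homo libraries, with an interval of −0.73 to 0.12.

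*Chac1* had the lowest unadjusted p of the 10 genes in both tests. It had 7.82, 0.60 and 1.33 CPM in *Cryab*-WT lenses, 0.0901, 0.391 and 0.21 CPM in het lenses and 0.393, 0.44 and 0.153 CPM in homo lenses, so both mutant groups lay below WT. The log2 fold change was −3.61 ± 0.96 in het and −3.13 ± 0.89 in homo lenses, with adjusted p = 0.857 and 0.533 (edgeR). Without *Cryab*-WT replicate 1 these became −1.95 and −1.47 (adjusted p = 0.688 and 0.453). DESeq2 called the het difference (adjusted p = 0.0347) and not the homo difference (adjusted p = 0.0674), and the likelihood-ratio test with robust dispersions called both (0.0348 and 0.0402). Over all genes DESeq2 called 0.0863% in het and 0.144% in homo lenses, and the likelihood-ratio test 0.330% and 1.84%. A fit over all genes with at least 1 count called *Chac1* lower in both (adjusted p = 9.04e-14 in het and 2.27e-12 in homo lenses) and also *Cebpb* (0.0373 and 0.0206), 2 of 10 genes in each comparison, against 0.527% and 1.14% of all genes. The median prior degrees of freedom of that fit were infinite, so it gave many genes the spread of the common trend and none of their own. Whether *Chac1* and *Cebpb* were among them was not looked up. *Cebpb* had 3.41 CPM in *Cryab*-WT replicate 1 and 0.0667 and 0.0742 CPM in the other two WT libraries, and its log2 fold change in homo lenses went from −3.01 to 0.85 without that replicate.

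Among the 9 *Cryab* libraries, *Cryab*-WT replicate 1 had the highest level of 5 genes (*Ddit3*, *Chac1*, *Atf4*, *Atf5*, *Cebpb*). The same library had 136 CPM of *Atf3*, a bZIP factor of early stress responses, against 0.333 and 0.222 CPM in the other two WT libraries, and 451 CPM of the ER chaperone gene *Hspa5*, against 126 and 68.5 CPM. Its 8 photoreceptor markers summed to 819 CPM, against 22.3 and 84.8 CPM in the other two WT libraries, 99.2 to 624 CPM in het lenses and 208 to 1225 CPM in homo lenses. Its erythroid markers summed to 145 CPM, against 15.5 and 24.2 CPM in the other WT libraries. The part of these differences in the values of the 5 genes was not tested.

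*Nupr1* was lower in all 3 *Cryab*-R120G-homo libraries (2787 to 3367 CPM) than in all WT libraries (3536 to 4138 CPM), with a log2 fold change of −0.38 ± 0.24 and an adjusted p of 0.905 (edgeR). *Ppp1r15a* was likewise below WT in homo lenses, with 281, 250 and 272 against 288, 366 and 334 CPM, at −0.30 ± 0.30. With *Chac1* these were 3 of 10 genes whose homo libraries did not overlap WT, against 9.0% of all genes, and in het lenses they were 2 of 10 (*Chac1*, *Atf5*, both lower) against 10.1%. Of these only *Chac1* kept its place with library totals as the only scaling, under which all genes had a median of 0.37 (log2) in homo and 0.21 in het lenses. *Nupr1* was then at −0.02 ± 0.19 in homo lenses (unadjusted p = 0.922, edgeR, adjusted p = 0.967) and overlapped WT, as *Ppp1r15a* did at 0.07 ± 0.32. The genes without overlap were then *Chac1* (lower) and *Vldlr* (higher) in homo lenses, against 16.0% of all genes, and *Chac1* (lower) and *Nupr1* (higher) in het lenses, against 15.4%. Lens fibre markers summed to 31789 to 44772 CPM in homo and 37526 to 53009 CPM in het lenses, against 52724 to 60476 CPM in *Cryab*-WT lenses, so that the homo libraries lay below WT. Pigment and ciliary epithelium markers summed to 15.3 to 27.0 CPM in homo and 17.2 to 51.6 CPM in het lenses, against 6.16 to 7.64 CPM in *Cryab*-WT lenses. Erythroid markers summed to 49.2 to 177 CPM in homo and 133 to 450 CPM in het lenses, against 15.5 to 145 CPM in *Cryab*-WT lenses. The part of these marker lists in the values of the genes was not tested. *Vldlr* had 14.3, 10.1 and 14.4 CPM in homo and 12.0, 8.40 and 9.12 CPM in WT lenses, at 0.40 ± 0.23, and with library totals alone it was at 0.78 ± 0.26 (unadjusted p = 0.00757, edgeR, adjusted p = 0.486). Between *Cryab*-R120G-homo and het lenses 0 of 10 genes passed, 0 at an unadjusted p under 0.05 and 0 by DESeq2, and 0% of all genes passed (273 genes at an unadjusted p under 0.05, and 0 by DESeq2).

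The effect of the het genotype was compared between the lines in 1 model. None of the 10 genes passed (adjusted p = 1 for each, edgeR, with *Chac1* alone at an unadjusted p under 0.05), and 0% of all genes passed (352 of 13938 at an unadjusted p under 0.05). The difference for *Chac1* was −4.26 ± 1.39 on the log2 scale, and that for *Ddit3* was 0.10 with a 95% interval of −0.72 to 0.92. Leaving out 1 library put the *Chac1* difference between −4.88 and −2.6. The homo effect was not compared between the lines by a test, since one side of it chose the genes. All libraries lay on opposite sides of WT in the lines for 1 of 10 genes in het lenses (*Chac1*), against 0.395% of all genes, and for 2 of 10 in homo lenses (*Chac1* and *Nupr1*), against 1.03% of all genes, of which the homo cases use the values that chose the genes. With library totals alone *Chac1* was the 1 such gene in both genotypes, against 0.215% and 0.560% of all genes, and *Nupr1* was not. *Chac1* had at most 15 counts in a *Cryaa*-R49C-het library and at most 8 in a mutant library of the *Cryab* line.

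WT lenses of the *Cryab* line at 14 days were compared with WT lenses of the *Cryaa* line at 2 days to describe the level of these genes without a mutation. Line and age differ together here, and the 2-day libraries also served in the choice of the genes. With TMM scaling 6 of 10 genes passed (edgeR), 5 higher and 1 lower at 14 days, against 23.2% of all genes. *Ppp1r15a* rose most, from 9.70 to 14.4 CPM at 2 days to 288 to 366 CPM at 14 days, a log2 fold change of 4.73 ± 0.35 (adjusted p = 4.51e-09). *Nupr1* rose by 1.88 ± 0.25, *Atf4* by 1.26 ± 0.21 and *Chac1* by 3.75 ± 0.86, while *Vldlr* had 18.6 to 24.8 CPM at 2 days and 8.40 to 12.0 CPM at 14 days and fell by 1.19 ± 0.23. The fifth higher gene, *Cebpb*, was at 4.02 ± 1.26 and rested on 1 library. *Cebpb* had passed the filter on low counts only through *Cryaa*-R49C-homo, with 1 library over the minimum outside it. With only the 2 WT groups in the fit, *Cebpb*, *Chac1* and *Trib3* were removed by the filter and could not be tested, and 5 of the other 7 genes passed, 4 higher and 1 lower.

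*Ddit3* (0.67 ± 0.28), *Trib3* (2.07 ± 0.95), *Atf5* (0.95 ± 0.49) and *Ddit4* (0.59 ± 0.32) did not pass. Other fits called *Trib3* and *Atf5* higher, the likelihood-ratio test (adjusted p = 0.011 and 0.0303) and the fit over all genes with at least 1 count (0.0141 and 0.012), and with only the groups compared *Atf5* was called too (0.0225). These fits called 32.9%, 12.7% and 28.7% of all genes. The likelihood-ratio test did not call *Cebpb* (1.44 ± 1.17, adjusted p = 0.36). *Trib3* had 0 libraries over the filter's minimum (by library total, before TMM scaling) outside *Cryaa*-R49C-homo, so its test rests on counts of 7 at 2 days and 14 at 14 days. With library totals as the only scaling, the median of all genes went from −0.07 to −1.61 and 83.2% of all genes passed, and with it *Ddit3* to −0.87 (adjusted p = 0.0218) and *Ddit4* to −1.01 (0.0169), both then passing as lower, and *Atf4* to −0.27 (0.279). *Ppp1r15a* (3.23), *Chac1* (2.26) and *Vldlr* (−2.72) kept their direction and passed under that scaling too. *Nupr1* (0.39, adjusted p = 0.0608) and *Cebpb* (2.48, 0.0716) no longer passed. *Cebpb* was 0.17 (adjusted p = 0.949) without *Cryab*-WT replicate 1, and *Chac1* was 2.09 (0.0165). *Cebpb* also failed the threshold without any 1 of the *Cryaa*-WT libraries (adjusted p = 0.0625, 0.0867 and 0.0673 without replicates 1, 2 and 3). Marker sums differed as well, with lens fibre markers at 52724 to 60476 CPM at 14 days against 5113 to 8586 CPM at 2 days, and macrophage markers at 0.533 to 2.31 against 6.55 to 15.2 CPM, and their part in these values was not tested. These sums have TMM scaling only, with factors of 0.488 to 0.545 at 14 days and 1.2 to 2 at 2 days. Such factors raise the 14-day sums against the 2-day sums, compared with library totals.

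**Figure D4:**
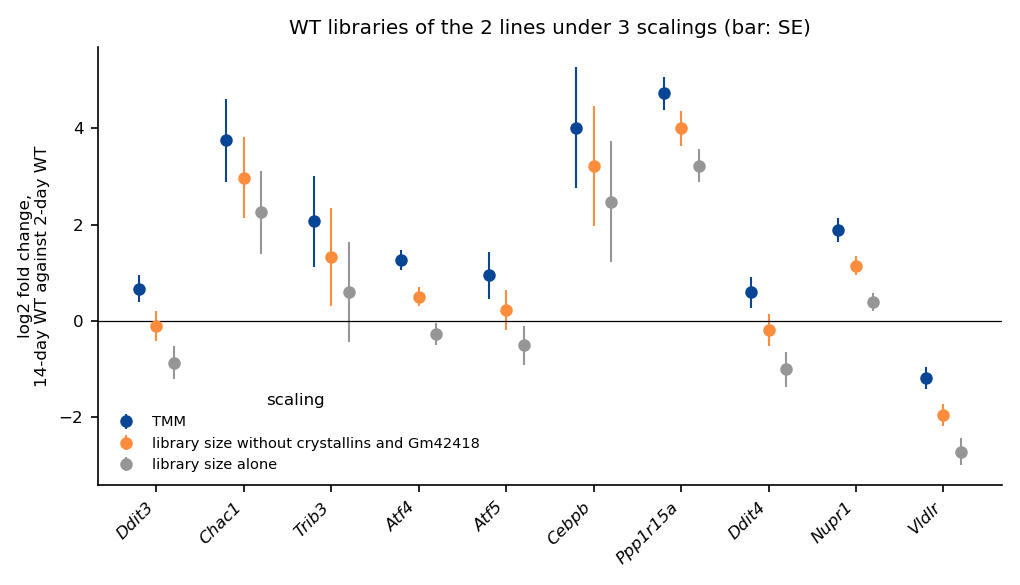
Log2 fold change of each gene between 14-day WT lenses of the *Cryab* line and 2-day WT lenses of the *Cryaa* line under 3 scalings, with the SE. *Ppp1r15a* stays above 3 and *Vldlr* below −1 under each scaling, whereas *Ddit3*, *Atf4*, *Atf5* and *Ddit4* cross 0 between TMM and library size alone.

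The wider pathway was described with lists of other genes, none of them among the 10. These lists were chosen with earlier results of these data known, so their counts describe the libraries and are no independent evidence. Genes known as ATF4 targets were the group with the most calls in homozygous *Cryaa*-R49C lenses: 20 of 29 tested rose and 1 fell (edgeR, adjusted p at most 0.05), with a median log2 fold change of 1.38 against 0.00 for all genes. Of all genes 9.79% passed in this comparison, the share against which the calls of each list stand. *Gdf15*, a stress cytokine, rose from 0.213, 0.337 and 0.315 CPM to 9.44, 8.54 and 10.6 CPM (5.01 ± 0.94, adjusted p = 0.00333). *Adm2*, a peptide hormone gene, had 0 counts in every WT library and 0.503 to 0.682 CPM in homo lenses. *Slc7a3*, a transporter of basic amino acids, rose by 3.64 ± 0.69 and *Stc2*, a secreted glycoprotein, by 3.38 ± 0.59, whereas *Pycr1*, a proline synthesis enzyme, fell by 1.69 ± 0.32. Leaving out any 1 library of the 2 groups left between 18 and 20 of these genes higher. *Gdf15*, *Adm2*, *Slc7a3* and *Stc2*, which are among the 20, passed the filter on low counts only through the homo libraries. Outside that group *Adm2* had at most 4 counts in a library, *Slc7a3* at most 5 and *Stc2* at most 16. *Gdf15* had 5 to 10 counts in the *Cryaa*-WT libraries and up to 66 in *Cryab*-WT.

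Among 6 CHOP targets tested only *Bbc3*, which encodes the death protein PUMA, rose (3.02 ± 0.49, adjusted p = 0.000245). Among 19 targets of ATF6 and XBP1, the factors of the other branches of the unfolded protein response, 5 rose, led by *Herpud1* (2.83 ± 0.31) and *Dnajb9* (1.38 ± 0.35), with *Sec61b* (0.96 ± 0.21) and *Hsp90b1* (0.88 ± 0.21). With library size alone 12 of these 19 were higher, and without any 1 of the 3 WT libraries 3 were. *Hspa5* had 64.2, 73.6 and 87.6 CPM in the WT libraries and 421, 154 and 134 CPM in the homo libraries, above WT in each but not past the threshold (1.65 ± 0.59, adjusted p = 0.097). The *Cryaa*-R49C-het libraries, with 115, 142 and 136 CPM of *Hspa5*, were also above every WT library.

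Of 19 genes of the eIF2 machinery tested 2 rose, *Eif2s2* (the β subunit of eIF2, 1.59 ± 0.28) and *Impact* (an inhibitor of the kinase GCN2, 0.84 ± 0.23), and 1 fell, *Eif2ak2* (the kinase PKR, −1.09 ± 0.32, adjusted p = 0.034). Of the other eIF2 kinase genes, *Eif2ak3* (PERK) was at 0.06 ± 0.48, *Eif2ak4* (GCN2) at 0.21 ± 0.27 and *Eif2ak1* (HRI) at −0.17 ± 0.22. Library size alone turned the list to 4 higher and 0 lower, leaving out homo replicate 1 gave 4 higher, and leaving out homo replicate 2 or WT replicate 1 or 3 gave 1. The number lower ran from 0 to 4 when 1 library was left out. Among 16 other bZIP factors *Nfil3* (2.63 ± 0.47), *Cebpg* (1.37 ± 0.32) and *Nfe2l1* (1.15 ± 0.27) rose and *Creb3l2* fell by 0.79 ± 0.23, with 5 higher when homo replicate 1 was left out and 5 higher and 0 lower with library size alone. *Atf3* had 0.426, 0.0337 and 0.14 CPM in the WT libraries and 12.7, 7.04 and 6.19 CPM in the homo libraries and did not pass (adjusted p = 0.0988). Among 11 paralogs of the 10 genes only *Cebpg*, which is also among the bZIP factors and the ATF4 targets, rose (2 higher with library size alone, and 1 to 3 when 1 library was left out), and *Ppp1r15b*, the constitutive counterpart of *Ppp1r15a*, was at 0.24 ± 0.27. *Hspa5*, *Atf3*, *Pycr1*, the uncalled kinase genes and *Ppp1r15b* were named after their values were seen.

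**Figure D5:**
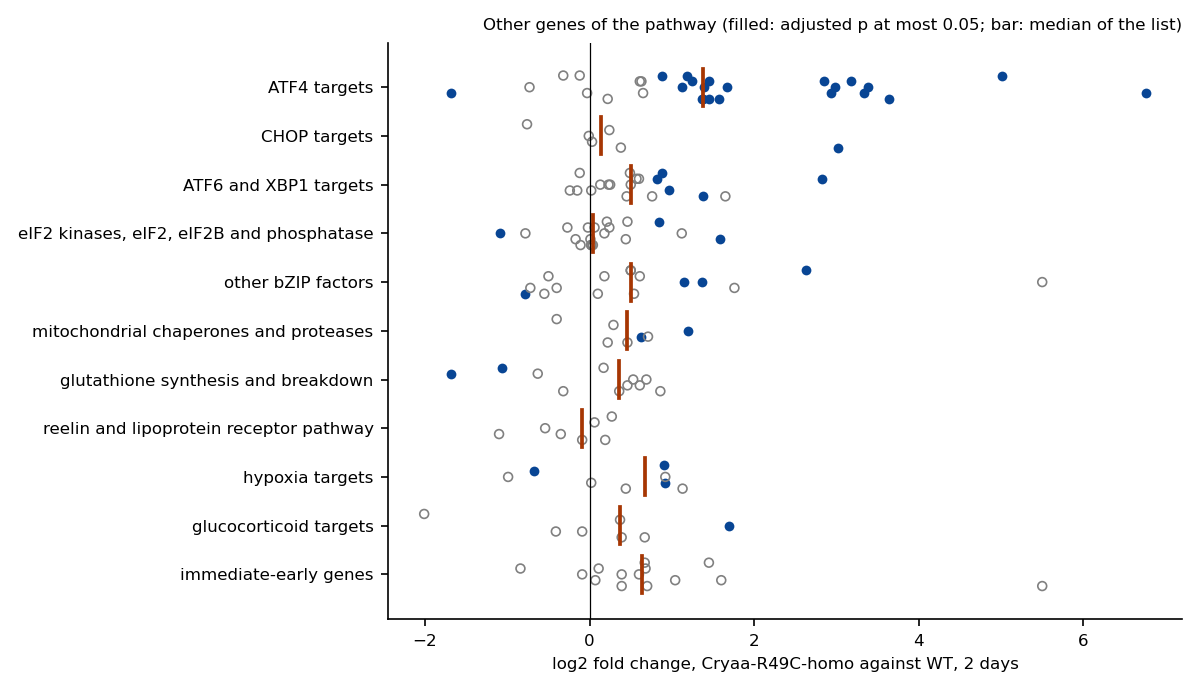
Log2 fold change of every tested gene of 11 pathway lists in *Cryaa*-R49C-homo against WT lenses. Filled points passed an adjusted p of 0.05, open points did not, and bars are list medians. The ATF4 targets have 20 filled points on the right and 1 on the left, and their median of 1.38 is the highest of the lists.

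Other lists were drawn around single members of the 10. Of 11 genes of glutathione synthesis and breakdown, the pathway of *Chac1*, 0 rose and 2 fell, *Ggct* (−1.68 ± 0.23) and *Ggt1* (−1.06 ± 0.32), both of which act in glutathione breakdown. With library size alone this list had 2 higher and 1 lower, and leaving out 1 library gave 0 to 2 higher and 1 to 3 lower. Of 7 mitochondrial chaperones and proteases, linked to *Atf5*, *Hspa9* (1.19 ± 0.28) and *Yme1l1* (0.62 ± 0.18) rose, and 1 to 2 were higher when 1 library was left out. None of 7 genes of the reelin and lipoprotein receptor pathway of *Vldlr* passed, and 0 to 2 were lower when 1 library was left out. Of 8 hypoxia targets, a second input of *Ddit4*, *Pdk1* (0.91 ± 0.20) and *Bnip3* (0.92 ± 0.29) rose and *Ndrg1* fell by 0.67 ± 0.22, and of 7 glucocorticoid targets, another such input, *Klf9* rose (1.70 ± 0.33). With library size alone 3 hypoxia targets were higher and 0 lower, and leaving out 1 library gave 1 to 2 higher and 0 to 1 lower. None of 14 immediate-early genes passed. Against WT, 0 genes of any of these lists passed in het lenses of either line or in *Cryab*-R120G-homo lenses (edgeR).

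Markers of other cells moved in the same homozygous lenses. Of 9 macrophage markers *C1qa* and *Aif1* rose, and the list summed to 15.5 to 29.8 CPM in homo against 6.55 to 15.2 CPM in WT lenses. Of 6 vessel and mesenchyme markers *Cdh5* rose, with sums of 18.9 to 63.2 against 18.3 to 33.5 CPM. Of 7 lens fibre markers 4 fell, among them *Bfsp1* (−2.23 ± 0.35), with sums of 2378 to 3361 against 5113 to 8586 CPM, and of 5 lens epithelium markers *Gja1* fell. Of 7 pigment and ciliary epithelium markers *Mlana* and *Pmel* fell, with sums of 8.89 to 14.9 against 18.4 to 35.1 CPM, and none of 8 photoreceptor or 5 erythroid markers passed. These counts moved with the settings. With library size alone 1 fibre marker and 0 pigment markers were lower, and 3 macrophage and 3 vessel markers higher. Leaving out 1 library gave 2 to 4 fibre and 1 to 4 pigment markers lower, and 0 to 5 macrophage and 0 to 3 vessel markers higher. The part of these cell types in the levels of the 10 genes was not tested.

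The genes whose level followed *Ddit3* most closely over the 18 libraries were sought by Pearson's r of log2 CPM, with TMM scaling only. Outside the 10 genes they were *Eprs* (r = 0.964), a transfer RNA synthetase gene, *9530053A07Rik* (0.958), *Srp19* (0.942), a subunit of the signal recognition particle, *Eif4ebp1* (0.94), an inhibitor of translation initiation, and *P2rx3* (0.931), an ATP-gated channel. *Eprs* had 41.0 ± 3.27 CPM (SD, n = 3) in *Cryaa*-WT lenses and 117 ± 19.3 CPM in the homozygotes of that line, and *Eif4ebp1* 12.2 ± 1.64 and 96.1 ± 43.2 CPM. Among the 10 genes *Trib3* (0.969) and *Chac1* (0.948) were closest, *Atf4* was at 0.744 and *Ppp1r15a* at −0.342. These values describe the 18 libraries only, of which the 3 of *Cryaa*-R49C-homo lie far from the other 15 on *Ddit3*. The same 3 libraries chose the 10 genes, so nothing is read from a high r among them. *9530053A07Rik* (0.0117 CPM in *Cryaa*-WT, 0.603 in *Cryaa*-R49C-homo) and *P2rx3* (0.0371 and 1.53 CPM) passed the filter on low counts through those libraries.

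Some of the 10 genes share bases with a gene on the opposite strand, and the strand setting of the counting is not stated, so reads in those bases cannot be told apart. *Cebpb* shares 908 bases with *Tmem189*, whose level at 2 days was 1.60 ± 0.0992 CPM in WT lenses and 3.10 ± 0.721 CPM in homozygotes. *Ppp1r15a* shares 717 bases with *Tulp2* (0.176 ± 0.0755 and 0.29 ± 0.0631 CPM), *Atf5* shares 571 bases with *Nup62* and 272 with *Il4i1*, and *Ddit3* shares 68 bases with *Mars* (8.57 ± 0.788 and 15.1 ± 2.21 CPM) and 15 with Gm4189. GENCODE vM21 also holds a second gene model named *Ddit3* on the same strand, which shares 2925 bases with it. The study names the Ensembl release of its assembly, and the deposited count table holds no second gene named *Ddit3*. Whether that annotation held the model under another name was not looked up, and reads that fit more than 1 gene were not counted.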

How the data were processed

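RNA of pooled lenses was made into poly-A libraries and sequenced as single reads. Per the labels and the methods of the study, the authors aligned the reads with STAR 2.0.4b to GRCm38 and derived gene counts from uniquely aligned, unambiguous reads with featureCounts 1.4.5. The deposited counts are not normalized, and the deposited RPKM values were, for the 10 genes, proportional to these counts over the library total. Groups were read from the sample titles, since a genotype entry of 6 *Cryab* libraries gives the *Cryaa* knock-in. Of 41422 table lines 40800 genes were left after repeated lines were dropped, and no sample column was left out. The 10 genes, the pathway lists and the tests were chosen with earlier results of these data known.

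Counts were analysed in R 4.3.3 with edgeR 4.0.16. Genes were kept by filterByExpr (13938), scaled by TMM and fitted in 1 model with 6 groups over all 18 libraries with robust dispersions, and contrasts were tested by the quasi-likelihood test. CPM are TMM-scaled, log2 CPM have a prior count of 2, and adjusted p-values are Benjamini-Hochberg values over all genes of a contrast with a threshold of 0.05. The fit was also run on simulated counts with known changes, whose outcome is not reported here. Alternatives were a filter of at least 1 count (26547 genes), DESeq2 1.42.0 and its size factors, library size alone or without crystallins and Gm42418, a likelihood-ratio test, only the groups compared, a replicate block, and leaving out each library. Named genes are the 10, and from each list up to 4 genes past the threshold with the largest change, or up to 2 abundant ones where none passed, and the 5 most like *Ddit3*. Same-numbered libraries of *Cryab*-WT and *Cryab*-R120G-homo deviated together (r = 0.28, 0.18 and 0.16), and those of the other group pairs did not all reach 0.1. Each library pools several animals of 1 group, so p-values measure the spread between pools. A count of 3 was set as the floor for low genes and was not measured. With 3 libraries a group an exact permutation test cannot go below p = 0.1, so none was run. RefSeq and GENCODE vM21 gave sequences and positions.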

Additional observations from a re-analysis of the deposited data

Results flagged for a closer look

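In 3 cases all libraries of a mutant group lay on one side of WT in one line and on the other side in the other line, which was so for 0.395% of all genes in het and 1.03% in homo lenses. *Chac1* was above WT in all 3 *Cryaa*-R49C-het libraries (log2 fold change 0.65) and below WT in all 3 *Cryab*-R120G-het libraries (−3.61), and the test of this difference gave an adjusted p of 1 (edgeR, unadjusted p = 0.00855). *Chac1* was also above WT in all *Cryaa*-R49C-homo libraries (8.43) and below WT in all *Cryab*-R120G-homo libraries (−3.13). *Nupr1* was above WT in all *Cryaa*-R49C-homo libraries (2.08) and below WT in all *Cryab*-R120G-homo libraries (−0.38) with TMM scaling. With library totals alone *Nupr1* overlapped WT in *Cryab*-R120G-homo lenses (−0.02), so its opposite sides rest on the scaling, while *Chac1* kept its sides in both genotypes. Outside *Cryaa*-R49C-homo the *Chac1* sides rest on few counts. *Cryaa*-R49C-het had 9 to 15 counts against 5 to 8 in WT, a ratio of summed counts of 1.59 (0.885 to 2.96, counting error only). *Cryab*-R120G-homo had 2 to 8 counts and *Cryab*-R120G-het 1 to 6, against 9 to 71 in WT. The homo differences were not tested, since one side of each chose the genes, and the *Cryab* values of *Chac1* rest in part on *Cryab*-WT replicate 1.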

How the results depend on the processing

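Of 883 values of the 10 genes under the alternatives in the tested comparisons, 804 kept their direction and their side of the threshold, and 59 changed sign. Of 278 values in the comparisons of *Cryaa*-R49C-homo with WT and het, which were not tested, 262 moved by less than the spread between replicates and 4 changed sign. With 3 libraries a group, low counts limit *Trib3*, *Chac1* and *Cebpb* most. Library totals as the scaling for counts of genes without overlap were chosen after seeing the data, and gave 4 for 3 in *Cryaa* het, 2 for 2 in *Cryab* het and 2 for 3 in *Cryab* homo. Where the cause of a change is not stated, the cause was not tested.

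The number of genes past the threshold moved as follows. It was 1 in *Cryaa*-R49C-het against WT and became 17 with all counted genes, 15 by the likelihood-ratio test, 0 with only the groups compared and 2 by DESeq2. For *Cryaa*-R49C-homo against WT it was 1365 (679 higher, 686 lower) and became 2138 (1884 higher, 254 lower) with library size alone, 2886 by the likelihood-ratio test and 478 with only the groups compared. Homo against het of that line gave 1160, then 3051 and 294 under the last 2 of these. *Cryab*-R120G-het against WT gave 1, then 140 with all counted genes, 46 by the likelihood-ratio test and 12 by DESeq2. *Cryab*-R120G-homo against WT gave 7, then 302, 257, 2 with only the groups compared and 20 by DESeq2. *Cryab* homo against het gave 0, then 15 with all counted genes and 2 by the likelihood-ratio test. The difference between the lines gave 0, then 88, 18, 1 and 6 in the order all counted genes, likelihood-ratio test, only the groups compared and DESeq2. WT at 14 against 2 days gave 3237 (1634 higher, 1603 lower), then 11593 (157 higher, 11436 lower) with library size alone and 6821 (431 higher, 6390 lower) without crystallins and Gm42418.

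With the replicate block these counts were 3 for *Cryab*-R120G-het, 18 for *Cryab*-R120G-homo and 1333 for WT at 14 against 2 days. The block was fitted within each line with replicate 1 as the reference. The count across the lines therefore compares levels at replicate 1 and not group means, and *Cebpb* was then at 5.88. Of the 10 genes, 0 passed with the block in *Cryab*-R120G-homo, and *Ddit4* went to 0.03. In that comparison all same-numbered libraries deviated together, with r from 0.16 to 0.28, but no label names a pairing. Elsewhere the libraries shared only a number, and the block changed no other call among the 10.

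Leaving out 1 library in turn gave 0 to 2 (*Cryaa* het), 731 to 3094 (*Cryaa* homo), 453 to 4131 (*Cryaa* homo against het), 0 to 2 (line difference), 0 to 3 (*Cryab* het), 1 to 13 (*Cryab* homo) and 1782 to 3172 (WT at 14 against 2 days).

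With library size alone these log2 fold changes turned in sign. *Ddit3* went to 0.02 in *Cryaa* het, and *Ppp1r15a* to 0.42 in *Cryaa* homo. In *Cryab* het *Ddit3* went to 0.08, *Atf4* to 0.02 and *Ppp1r15a* to 0.09. In *Cryab* homo *Ddit3* went to 0.15, *Trib3* to 0.20, *Atf4* to 0.08, *Atf5* to 0.04, *Ppp1r15a* to 0.07 and *Ddit4* to 0.34. In *Cryab* homo against het *Ddit3* went to 0.07, *Atf4* to 0.06, *Atf5* to 0.10 and *Ddit4* to 0.11. At 14 against 2 days *Ddit3* went to −0.87, *Atf4* to −0.27, *Atf5* to −0.51 and *Ddit4* to −1.01. Without crystallins and Gm42418 *Ddit3* was 0.06 and *Ppp1r15a* 0.05 in *Cryab* het, *Ddit3* 0.05, *Trib3* 0.10 and *Ddit4* 0.22 in *Cryab* homo, *Atf5* 0.02 and *Ddit4* 0.04 in homo against het, and *Ddit3* −0.10 and *Ddit4* −0.19 at 14 against 2 days. By the likelihood-ratio test *Ddit3* was 0.11 in *Cryab* het, and in *Cryab* homo *Ddit3* was 0.02 and *Ddit4* 0.06.

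Leaving out 1 library, *Cebpb* ran from −0.33 to 0.87 in *Cryaa* het and *Ppp1r15a* from −0.62 to 0.21 in *Cryaa* homo. In the line difference *Cebpb* ran from −4.86 to 0.49 and *Ddit3* from −0.12 to 0.54. In *Cryab* het *Atf4* ran from −0.29 to 0.00, *Cebpb* from −4.60 to 0.75, *Ddit3* from −0.34 to 0.33, *Ddit4* from −0.22 to 0.43, *Nupr1* from −0.02 to 0.18 and *Ppp1r15a* from −0.27 to 0.09. In *Cryab* homo *Cebpb* ran from −3.63 to 0.85, *Ddit3* from −0.44 to 0.23, *Ddit4* from −0.26 to 0.39 and *Trib3* from −0.82 to 0.34. In *Cryab* homo against het *Atf5* ran from −0.27 to 0.10, *Cebpb* from −0.48 to 1.59, *Ddit3* from −0.26 to 0.11 and *Ddit4* from −0.10 to 0.05.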
